A study of Mus musculus with 8 samples.

Results

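The autophagy genes are 38 protein-coding genes among 55335 in the table. They were picked out by symbol: the numbered Atg genes, Map1lc3a and Map1lc3b, the Gabarap genes, Ulk1 to Ulk3, Wipi1 and Wipi2, and Becn1, Pik3c3, Pik3r4, Rb1cc1, Sqstm1, Optn, Nbr1, Tfeb and Tfe3. This choice was made with earlier results of these data known. The cells were RAW264.7, a line of macrophage character from a mouse tumour, whose RNA was sequenced after 3 days with a scaffold of hydroxyapatite doped with magnesium ions (HA/Mg, 4 libraries) or with the Trio-Active bone scaffold (TABS, 4 libraries). Libraries are numbered as replicates 5 to 8 in each group, no library of cells without a scaffold was used here, and the components of TABS were not named in the labels. Every difference is therefore between these scaffolds, in a transformed cell line. Whether replicates were cultured separately is not stated, so p-values reflect the spread between libraries alone, which may be technical. Groups follow the sample titles. The library names mark TABS with H and HA/Mg with L, and if the groups had been exchanged every direction below would be reversed.

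Autophagy is the route by which a cell wraps part of its cytoplasm in a double membrane, the autophagosome, and delivers it to the lysosome. A kinase complex starts the process, a lipid kinase complex marks the membrane, lipid carriers make it grow, and enzymes resembling those of ubiquitination attach small proteins of the ATG8 family (the LC3 and GABARAP proteins) to it. Cargo receptors such as p62 bind both the cargo and the ATG8 proteins. In macrophages the same machinery clears intracellular microbes and damaged organelles, and parts of it act on phagosomes. Autophagy is controlled largely at the level of proteins, so mRNA levels do not measure its rate.

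Levels are in FPKM, fragments scaled for the length of the transcript and the mapped total of the library, and 4 values in a row stand for replicates 5 to 8 in that order. The spacing of low values implied 19600000 to 23600000 fragments per library, an estimate only, since 29.6% to 31.0% of low values came out as whole fragments within 0.05 fragment. Of 10 macrophage markers 9 were at 1 FPKM or more (Mrc1 was not), and their summed level was 2493 to 2794 FPKM with TABS and 2060 to 2457 FPKM with HA/Mg. Of these markers Cd68, Csf1r and Cd14 passed the threshold used below, all higher with TABS. The other tested ones did not pass, among them Lyz2, the largest term of the sum. Ptprc and Itgam, also not past it, had lower means with TABS. The shift of the sum goes with the groups, and its part in the differences below was not tested. The markers tried for fibroblasts, osteoblasts, T cells, B cells, neutrophils, epithelium and endothelium were all under 1 FPKM, and of 5 osteoclast markers Dcstamp, a fusion receptor, was above it. HA/Mg replicate 6 lay apart from the other HA/Mg libraries, at -2.62 on the first principal component of all tested genes against 12.7 to 16.4, with TABS at -16.5 to -5.72. It had the lowest HA/Mg value for 50.1% of all tested genes and for 20 of the 35 autophagy genes tested, and TABS replicate 7 had the lowest TABS value for 41.2% and 21 of 35. Results are therefore also given without these libraries where a call depends on them.

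The promoters of 3 of the genes that changed are shown first, because their transcripts gave the largest rise (Gabarap), the rise with the smallest standard error (Gabarapl2) and the largest fall (Atg14). The transcription factors TFEB and TFE3, which drive many lysosomal and autophagy genes, bind sites built around the letters CACGTG, and capitals mark these letters. Each window runs from 250 bases before to 50 after a RefSeq start on GRCm38.p6, 5′ to 3′ along the gene, and is the reference sequence, not that of RAW264.7. The other matches among the autophagy genes are given as 30 bases around the site.
Atg14 promoter, chr14:47568385-47568684, minus strand: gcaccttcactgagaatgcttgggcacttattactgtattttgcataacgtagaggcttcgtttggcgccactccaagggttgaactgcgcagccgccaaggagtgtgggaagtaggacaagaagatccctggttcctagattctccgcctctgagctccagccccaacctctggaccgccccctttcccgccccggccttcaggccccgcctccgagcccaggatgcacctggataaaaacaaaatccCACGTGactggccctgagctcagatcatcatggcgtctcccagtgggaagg
Gabarap promoter, chr11:69991120-69991419, plus strand: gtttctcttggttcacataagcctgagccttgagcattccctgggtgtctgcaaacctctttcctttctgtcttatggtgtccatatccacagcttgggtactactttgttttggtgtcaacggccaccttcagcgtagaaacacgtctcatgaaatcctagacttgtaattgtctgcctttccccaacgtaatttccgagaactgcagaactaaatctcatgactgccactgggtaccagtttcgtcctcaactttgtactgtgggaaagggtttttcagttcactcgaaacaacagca
Gabarapl2 promoter, chr8:111940453-111940752, plus strand: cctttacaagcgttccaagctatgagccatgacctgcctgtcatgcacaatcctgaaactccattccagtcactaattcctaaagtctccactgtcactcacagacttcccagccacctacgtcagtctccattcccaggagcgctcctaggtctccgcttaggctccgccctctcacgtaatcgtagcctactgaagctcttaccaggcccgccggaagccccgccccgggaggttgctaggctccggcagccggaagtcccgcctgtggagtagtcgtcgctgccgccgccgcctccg
Atg3 upstream match, chr16:45158723-45158752, plus strand: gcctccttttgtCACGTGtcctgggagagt
Atg3 downstream match, chr16:45158746-45158775, plus strand: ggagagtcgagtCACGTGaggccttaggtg
Atg5 match, chr10:44268313-44268342, plus strand: cggagcgcttgcCACGTGgtcttggtgacg
Atg7 match, chr6:114670952-114670981, plus strand: catattggtggtCACGTGtgcagtaagtga
Promoter windows were found for 31 of the 38 genes. CACGTG, which reads the same on both strands, occurred in the windows of 4 of the 31 (12.9%: Atg3, Atg5, Atg7 and Atg14) and of 2187 of all 27025 genes with a window (8.09%). The longer form GTCACGTG, which contains it, was found on either strand in Atg3, Atg7 and Atg14 (9.68%, against 2.55% of all genes). Of the 5 genes that changed, Atg14 alone held CACGTG in its window, beginning 1 base before the RefSeq start and running across it. These are matches of letters and not measured binding. The windows of Atg7 and Atg14 lie inside the annotated genes, which begin further upstream, at chr6:114643097 and chr14:47570649. Those of Atg4b, Wipi1 and Wipi2 also lie inside. Most of the Gabarap window and most of the Atg9a window lie inside as well, past annotated starts at chr11:69991143 and chr1:75192196. For the called genes Gabarap, Atg9a and Atg14, the sequence before the annotated start was therefore searched little or not at all.

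The levels of the 38 genes spanned from almost none to the level of Sqstm1. That gene, which encodes the cargo receptor p62, was the most abundant at a mean of 348 FPKM over the 8 libraries, followed by the ATG8 genes Gabarap at 132 FPKM and Gabarapl1 at 72.4 FPKM. Sqstm1 by itself made up 42.6% of the summed FPKM of all 38 genes. Next came Atg13, an adaptor of the starting kinase complex, at 25.5 FPKM and the ATG8 gene Gabarapl2 at 25.3 FPKM. Another 18 genes lay between 5 and 20 FPKM and 12 between 1 and 5 FPKM. The 3 others stayed under the filter of 1 FPKM in at least 4 libraries and were not tested. They were Rb1cc1, which encodes the large scaffold of the starting kinase complex (FIP200), Optn, and Atg4a-ps, a copy of Atg4a that is annotated as protein-coding although its symbol marks a pseudogene. Rb1cc1 was at 0.473, 0.420, 0.239 and 0.434 FPKM in the TABS replicates, and the HA/Mg replicates gave 0.827, 0.387, 0.588 and 0.667 FPKM. The groups overlapped through HA/Mg replicate 6. Optn, the receptor optineurin, was listed at 0 in all TABS libraries and in HA/Mg replicate 6 and at 0.0118 to 0.0170 FPKM in the other HA/Mg libraries, so its transcript was nearly undetected in these cells.

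**Figure D1:**
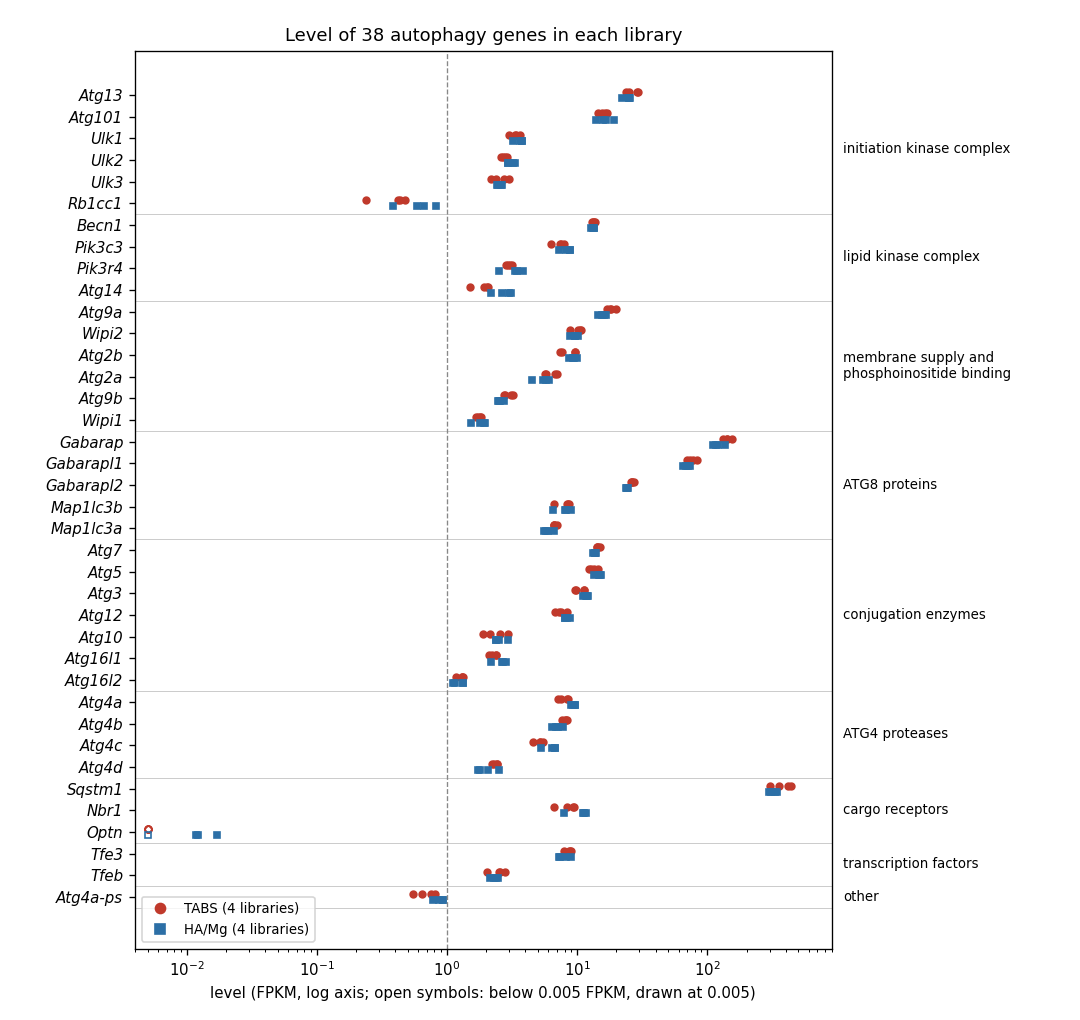
Level of each of the 38 genes in every library (FPKM, log axis), grouped by role, with TABS as circles and HA/Mg as squares. The dashed line marks 1 FPKM. Sqstm1 and Gabarap lie above 100 FPKM and Optn, Rb1cc1 and Atg4a-ps below 1 FPKM, and in nearly every gene the groups lie close together.

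Against this spread of levels the scaffolds differed little. Of the 35 genes tested, 3 were higher with TABS (Gabarap, Gabarapl2 and Atg9a), 2 were lower (Atg4a and Atg14), and 30 did not pass the threshold of an adjusted p under 0.05. That is 14.3% of the tested members, beside 18.1% of all 10161 genes tested. For all genes, 28.0% of the called genes were higher with TABS, and this share was 45.5% after median-of-ratios scaling, 40.3% after quantile normalization and 13.9% after rescaling to equal sums. By direction the counts were 3 of 35 beside 5.07% of all genes for higher, and 2 of 35 beside 13.1% for lower. Differences are on the log2(FPKM + 1) scale, TABS minus HA/Mg, from limma with Benjamini-Hochberg adjustment over all tested genes, with standard errors of the model. This scale understates the change of low genes, and in bulk RNA fewer expressing cells and less RNA per cell cannot be told apart. The log2 changes of the 35 genes ran from -0.37 to 0.24 with a median of 0.02, and 19 were positive. Over all tested genes the median was -0.04, and 4295 of 10161 were positive. The groups did not overlap for 4 members that were higher (Gabarapl2, Atg9a, Map1lc3a and Atg7), beside 8.05% of all genes, and for 3 that were lower (Atg4a, Atg14 and Ulk2), beside 15.0%. In either direction the groups were separate for 23.1% of all genes.

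The 5 calls sat close to the threshold. Without HA/Mg replicate 5, 7 or 8 limma called 0 of the 35 genes (unadjusted p under 0.05 for 7, 7 and 10 of them). Without HA/Mg replicate 6 it called 9, these 5 and also Map1lc3a (higher) and Atg4c, Atg16l1 and Nbr1 (lower). Of all 10161 genes the same fit called 868 higher and 2452 lower. This limma fit gave unadjusted p under 0.05 for 16 of 35 members and 4550 of 10161 genes, against 10 and 3703 with all libraries. With any 1 of the TABS libraries left out, limma called 1 gene. It was Atg4a without replicate 5 or 6, Atg9a without replicate 8, and Sqstm1, which is not among these 5, without replicate 7.

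**Figure D2:**
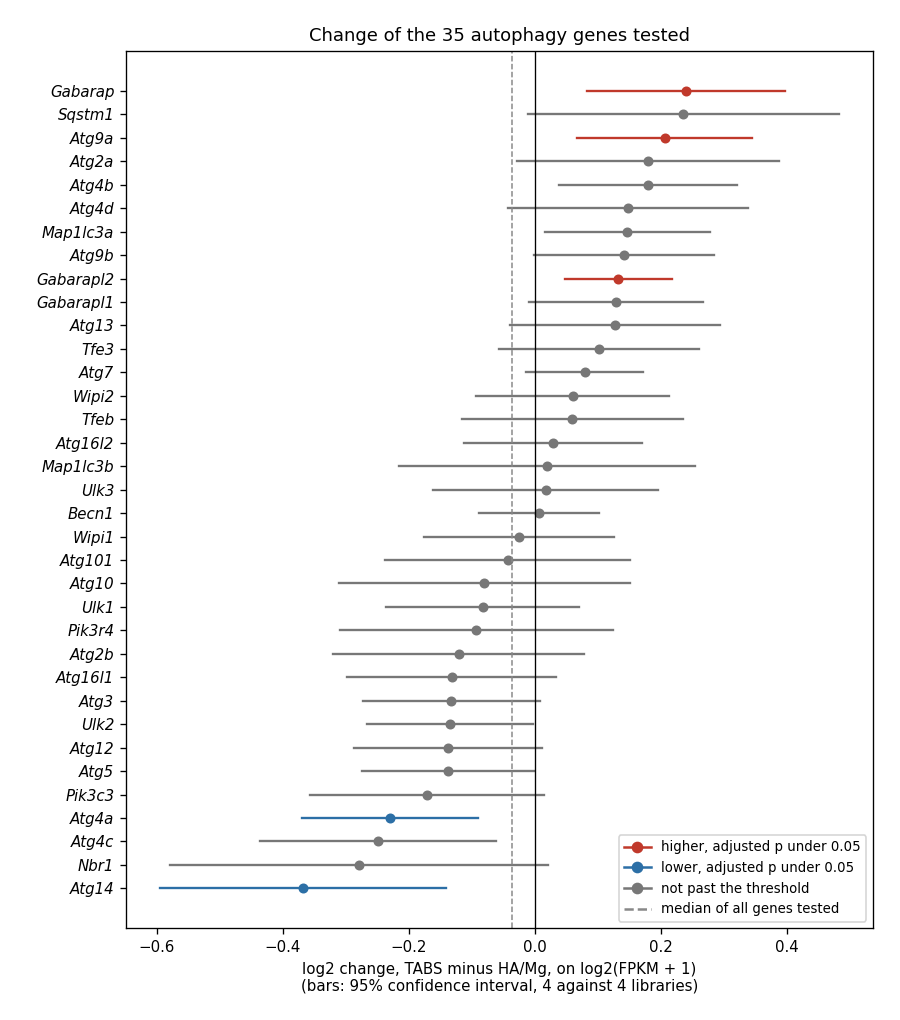
Log2 change of the 35 tested genes, TABS minus HA/Mg, with 95% confidence intervals, ordered by size. The dashed line is the median of all genes tested (-0.04), and coloured points are the 3 genes that were higher and the 2 that were lower.

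The initiation genes, which encode the kinase complex that starts an autophagosome, showed no call. Of the 5 tested 0 passed (Ulk2 alone at an unadjusted p under 0.05 in limma), and the median log2 change was -0.04. Ulk1, the main kinase, was at 3.30, 3.61, 3.01 and 3.40 FPKM in the TABS replicates, and the HA/Mg replicates gave 3.75, 3.21, 3.62 and 3.78 FPKM. The groups overlapped, with HA/Mg replicate 6 below the mean of TABS (log2 change -0.08 ± 0.07 SE, limma adjusted p = 0.404). Ulk2, a related kinase, was at 2.61 to 2.87 FPKM with TABS and 2.93 to 3.30 FPKM with HA/Mg. Its groups did not overlap, yet the difference did not pass (log2 change -0.13, limma adjusted p = 0.130). Atg13, the adaptor that joins ULK1 to FIP200, had a mean of 26.7 FPKM with TABS and 24.3 FPKM with HA/Mg (log2 change 0.13, limma adjusted p = 0.242). Atg101, whose product stabilises ATG13, and Ulk3, a further kinase of the family, differed by -0.04 and 0.02 on the log2 scale.

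In the lipid kinase complex, which makes phosphatidylinositol 3-phosphate on the growing membrane, Atg14 fell and the other members did not pass. Atg14, the subunit that directs the complex to autophagosome formation, was at 2.03, 1.94, 1.49 and 2.06 FPKM in the TABS replicates, and the HA/Mg replicates gave 2.99, 2.16, 2.66 and 3.09 FPKM. All TABS libraries lay below all HA/Mg libraries, by a small margin from HA/Mg replicate 6. The means were 1.88 ± 0.264 FPKM with TABS and 2.72 ± 0.420 FPKM with HA/Mg (SD, n = 4), a level 1.45-fold lower with TABS. The log2 change was -0.37 ± 0.10 SE with a 95% confidence interval of -0.60 to -0.14 (limma adjusted p = 0.0377), the largest change among the 35 genes. The gene spans chr14:47540893-47570649 on the minus strand of GRCm38, and at its level the library depths imply only 125 to 164 fragments with TABS and 185 to 271 with HA/Mg.

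Becn1, which encodes the scaffold subunit Beclin 1, was among the most even genes. Its values were 13.6, 13.1, 13.4 and 13.0 FPKM in the TABS replicates, and the HA/Mg replicates gave 13.1, 13.6, 13.4 and 12.8 FPKM. The groups coincided, with a log2 change of 0.01 ± 0.04 SE and a 95% confidence interval of -0.09 to 0.10 (limma adjusted p = 0.934). Pik3c3, the catalytic subunit VPS34, averaged 7.24 FPKM with TABS and 8.28 FPKM with HA/Mg (log2 change -0.17, limma adjusted p = 0.165). Pik3r4, its regulatory subunit, differed by -0.09 (limma adjusted p = 0.511). The difference between Atg14 and Becn1 was not tested.

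Among the 6 genes for membrane supply and phosphoinositide binding, Atg9a rose and 5 did not pass. ATG9A is a membrane protein that moves lipids across the bilayer of the vesicles that seed the autophagosome. Atg9a was at 20.0, 18.2, 18.0 and 16.8 FPKM in the TABS replicates, and the HA/Mg replicates gave 15.9, 16.7, 14.5 and 15.5 FPKM. The groups did not overlap, but the lowest TABS library (replicate 8) and the highest HA/Mg library (replicate 6) nearly met. The means were 18.2 ± 1.31 and 15.7 ± 0.894 FPKM (SD, n = 4), 1.16-fold higher with TABS (log2 change 0.21 ± 0.06 SE, limma adjusted p = 0.0476). The gene lies at chr1:75180860-75192196 on the minus strand and overlaps exons of Ankzf1 on the other strand, which had a mean of 3.22 FPKM. Whether the counting used strand is not given, so reads from the overlap could belong to either gene. Gm29253, on the same strand, also overlaps its exons and holds 41.6% of the stretches of 50 bases of Atg9a. It was listed at a mean of 0.217 FPKM, and how reads that match both were counted is not stated.
Atg2a and Atg2b, which encode channels that carry lipid into the growing membrane, leaned in opposite directions, at log2 changes of 0.18 and -0.12 (limma adjusted p = 0.190 and 0.349). Atg9b, a relative of Atg9a, averaged 2.94 FPKM with TABS and 2.56 FPKM with HA/Mg (log2 change 0.14, limma adjusted p = 0.139). Wipi1 and Wipi2 bind the lipid that the kinase complex makes, and differed by -0.03 and 0.06.

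The ATG8 genes gave 2 of the 3 rises. All 5 had a positive log2 change, from 0.02 to 0.24 with a median of 0.13, and 2 passed. The GABARAP branch, which acts late in autophagosome closure and fusion, dominated: Gabarap, Gabarapl1 and Gabarapl2 made up 94.1% of the summed ATG8 FPKM, averaged over the 8 libraries, and the LC3 genes the rest.
Gabarap was at 141, 133, 154 and 143 FPKM in the TABS replicates, and the HA/Mg replicates gave 116, 136, 121 and 110 FPKM. HA/Mg replicate 6 lay above TABS replicate 6, so the groups overlapped by 1 library. The means were 142 ± 8.54 FPKM with TABS and 121 ± 11.1 FPKM with HA/Mg (SD, n = 4), 1.18-fold higher with TABS (log2 change 0.24 ± 0.07 SE, 95% confidence interval 0.08 to 0.40, limma adjusted p = 0.0435). Its gene lies at chr11:69991143-69994951 on the plus strand.
Gabarapl2, also known as GATE-16, was at 26.6, 26.5, 27.4 and 25.7 FPKM in the TABS replicates, and the HA/Mg replicates gave 24.4, 24.3, 23.7 and 24.1 FPKM. The change was small, but both groups were tight and did not overlap. The means were 26.5 ± 0.703 and 24.1 ± 0.270 FPKM (SD, n = 4), 1.10-fold higher with TABS (log2 change 0.13 ± 0.04 SE, 95% confidence interval 0.05 to 0.22, limma adjusted p = 0.0412). It lies at chr8:111940703-111953612 on the plus strand. Gm3724, a short processed pseudogene that shares 66.7% of its stretches of 50 bases with Gabarapl2, was listed at 8.63 ± 0.154 FPKM with TABS and 7.40 ± 0.559 FPKM with HA/Mg (SD, n = 4), also higher (log2 change 0.20, limma adjusted p = 0.0420). Reads could have been split between them, so the level of either is uncertain.

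Gabarapl1 was at 82.9, 76.9, 73.8 and 69.4 FPKM in the TABS replicates, and the HA/Mg replicates gave 68.0, 73.1, 70.8 and 64.5 FPKM. The groups overlapped and the difference did not pass (log2 change 0.13 ± 0.06 SE, limma adjusted p = 0.161). Map1lc3a, which encodes LC3A, was at 6.96, 6.63, 6.68 and 6.67 FPKM in the TABS replicates, and the HA/Mg replicates gave 5.80, 6.62, 5.59 and 5.99 FPKM. The groups met at TABS replicate 6 and HA/Mg replicate 6 without overlapping, and the gene did not pass (log2 change 0.15 ± 0.06 SE, limma adjusted p = 0.103). Without HA/Mg replicate 6 it did (log2 change 0.19, limma adjusted p = 0.0225).
Map1lc3b, which encodes LC3B, the protein most used to follow autophagosomes, was at 6.62, 8.41, 8.67 and 8.51 FPKM in the TABS replicates, and the HA/Mg replicates gave 8.12, 8.95, 8.21 and 6.48 FPKM. Each group had 1 low library, TABS replicate 5 and HA/Mg replicate 8, and the rest coincided (log2 change 0.02, 95% confidence interval -0.22 to 0.25, limma adjusted p = 0.913). Its processed pseudogene Gm6055 shares 84.8% of its stretches of 50 bases with Map1lc3b and was listed at 10.9 ± 0.987 FPKM with TABS and 9.90 ± 0.863 FPKM with HA/Mg (SD, n = 4). The pseudogene was thus listed above the gene itself, and the LC3B level is uncertain wherever reads were divided between them.
Summed over the 5 ATG8 genes, the FPKM was 251 to 270 with TABS and 211 to 249 with HA/Mg, with Gabarap the largest term.

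**Figure D3:**
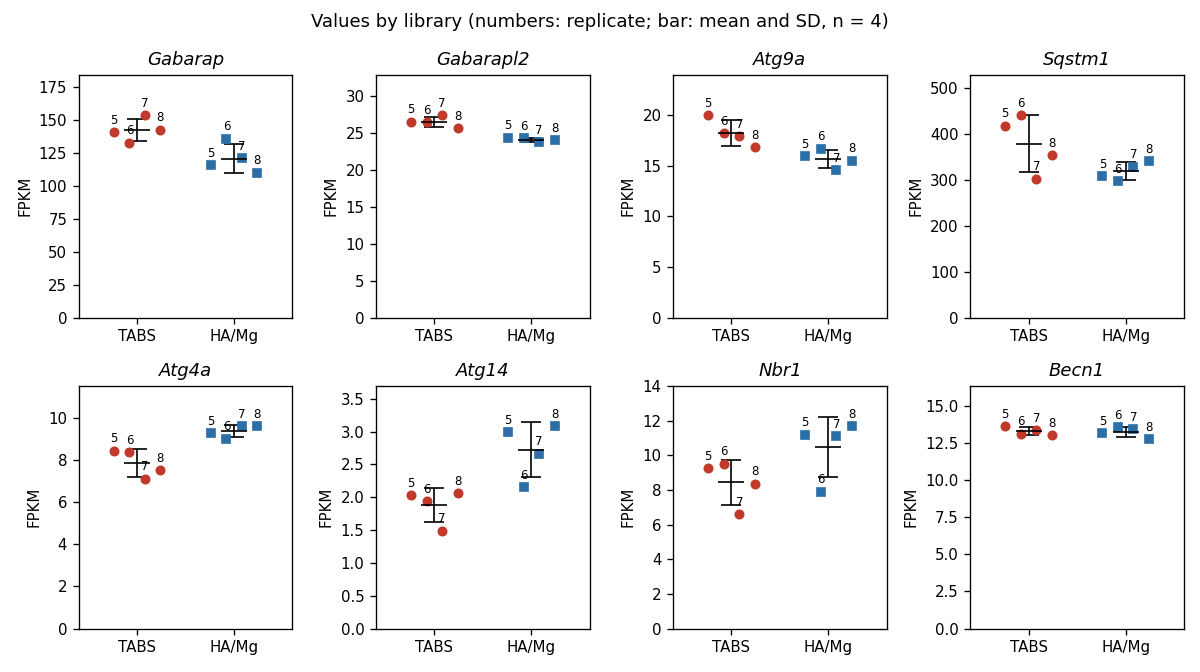
Level in each library (FPKM, axis from 0) of 8 autophagy genes, with the replicate number beside each point and bars for mean and SD (n = 4). Gabarapl2, Atg9a, Atg4a and Atg14 separate the groups, TABS replicate 7 is the lowest TABS library for Sqstm1, Nbr1, Atg4a and Atg14, and HA/Mg replicate 6 is the lowest HA/Mg library for Sqstm1, Nbr1, Atg4a and Atg14.

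The conjugation enzymes attach ATG8 proteins to lipid, and 0 of 7 tested genes passed (Atg5 alone at an unadjusted p under 0.05 in limma). Their median log2 change was -0.13, with 5 negative and 2 positive. Atg7, the activating enzyme of both conjugation routes, was at 14.2 to 14.9 FPKM with TABS and 13.2 to 13.8 FPKM with HA/Mg. The groups did not overlap, but the log2 change was only 0.08 (limma adjusted p = 0.195). Atg5, which forms the conjugating complex with ATG12 and ATG16L1, averaged 13.2 FPKM with TABS and 14.6 FPKM with HA/Mg (log2 change -0.14, limma adjusted p = 0.133). Atg12 and Atg3, the transfer enzyme for ATG8 proteins, differed by -0.14 and -0.13 (limma adjusted p = 0.164 and 0.157). Atg3 and Atg7, whose windows hold GTCACGTG like that of Atg14, did not pass, and a part of this site in any change was not tested. Atg16l1, Atg10 and Atg16l2 differed by -0.13, -0.08 and 0.03.

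The ATG4 proteases trim new ATG8 proteins and also release them from membranes, and their genes were split. Atg4a fell, and 3 did not pass. Atg4a was at 8.45, 8.39, 7.12 and 7.54 FPKM in the TABS replicates, and the HA/Mg replicates gave 9.30, 9.03, 9.61 and 9.63 FPKM. The HA/Mg libraries were tight and all above the TABS libraries. The means were 7.87 ± 0.652 and 9.39 ± 0.284 FPKM (SD, n = 4), 1.19-fold lower with TABS (log2 change -0.23 ± 0.06 SE, 95% confidence interval -0.37 to -0.09, limma adjusted p = 0.0353). The gene lies at chrX:140956907-141164270 on the plus strand. Atg4a shares 63.6% of its stretches of 50 bases with Atg4a-ps, and the copy was listed at 0.689 FPKM with TABS and 0.876 FPKM with HA/Mg. How reads that match both were counted is not stated, so the level of Atg4a is uncertain.
Atg4b, the protease with the broadest activity on ATG8 proteins, averaged 8.07 ± 0.316 FPKM with TABS and 7.02 ± 0.571 FPKM with HA/Mg (SD, n = 4; log2 change 0.18 ± 0.06 SE, limma adjusted p = 0.0731). Atg4c averaged 5.09 ± 0.384 FPKM with TABS and 6.26 ± 0.703 FPKM with HA/Mg (SD, n = 4; log2 change -0.25 ± 0.08 SE, limma adjusted p = 0.0641). HA/Mg replicate 6, at 5.23 FPKM, was the HA/Mg library inside the TABS range of Atg4c, and without it the gene passed (log2 change -0.32, limma adjusted p = 0.00884). Atg4d differed by 0.15 (limma adjusted p = 0.235). In a ratio chosen after its values were seen, and so given as a description, Atg4b over Atg4a was 0.911 to 1.18 with TABS and 0.708 to 0.837 with HA/Mg. The protease transcript listed highest was Atg4a in every HA/Mg library and Atg4b in TABS replicates 7 and 8. Both statements rest on the uncertain level of Atg4a.

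The cargo receptors link what is to be degraded to ATG8 proteins, and neither tested gene passed, nor had an unadjusted p under 0.05 in limma. Sqstm1 was at 417, 440, 302 and 353 FPKM in the TABS replicates, and the HA/Mg replicates gave 307, 297, 328 and 340 FPKM. TABS replicate 7 lay within the HA/Mg range and the other TABS libraries above it. The means were 378 ± 62.5 and 318 ± 19.8 FPKM (SD, n = 4; log2 change 0.24 ± 0.11 SE, 95% confidence interval -0.01 to 0.48, limma adjusted p = 0.153). Without TABS replicate 7 the difference passed (log2 change 0.34, limma adjusted p = 0.0427). The gene lies at chr11:50199366-50210827 on the minus strand.
Nbr1, a receptor related to p62, was at 9.25, 9.51, 6.61 and 8.36 FPKM in the TABS replicates, and the HA/Mg replicates gave 11.2, 7.90, 11.1 and 11.7 FPKM. HA/Mg replicate 6 alone among the HA/Mg libraries fell within the TABS range (log2 change -0.28 ± 0.13 SE, limma adjusted p = 0.162). Without it the difference passed (log2 change -0.40, limma adjusted p = 0.0248). In a ratio also chosen after its values were seen, Sqstm1 over Nbr1 was 42.2 to 46.2 in the TABS libraries and 27.5 to 37.5 in the HA/Mg libraries. TABS replicate 7, lowest in the group for both transcripts, was thus close to the other TABS libraries in their ratio.

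The genes of the transcription factors TFE3 and TFEB showed no call, adjusted or unadjusted, in limma. Tfe3 was at 8.94, 8.87, 7.94 and 8.64 FPKM in the TABS replicates, and the HA/Mg replicates gave 7.29, 8.91, 8.27 and 7.38 FPKM. The groups overlapped (log2 change 0.10 ± 0.07 SE, limma adjusted p = 0.323). Tfeb, the scarcer of the pair, was at 2.80, 2.49, 2.03 and 2.53 FPKM in the TABS replicates, and the HA/Mg replicates gave 2.13, 2.36, 2.30 and 2.46 FPKM. TABS replicate 7 was the lowest library of all (log2 change 0.06 ± 0.08 SE, limma adjusted p = 0.611). Both factors are switched mainly by moving between cytoplasm and nucleus, which mRNA does not show.

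Around the core genes, the share of tested genes called in the related lists was 10.5% to 17.6%, none above the 18.1% of all genes. Of 28 lysosomal genes known as targets of TFEB and TFE3, 2 rose, 2 fell and 24 did not pass. The log2 change was positive for 22, beside 4295 of all 10161 genes tested (median 0.09, against -0.04 for all genes). This lean of the list was not examined after the removal of length and GC trends given below. None of the genes called in the list passed after that removal. Gaa, the acid glucosidase that digests glycogen in lysosomes, was at 59.4, 56.1, 54.3 and 53.5 FPKM in the TABS replicates, and the HA/Mg replicates gave 46.0, 50.5, 45.6 and 45.5 FPKM. All TABS libraries were higher (log2 change 0.25 ± 0.05 SE, limma adjusted p = 0.0159). Hexa, a subunit of hexosaminidase, rose by 0.16 on the log2 scale (limma adjusted p = 0.0463).
On the falling side, Atp6v1h, a regulatory subunit of the lysosomal proton pump, averaged 9.84 FPKM with TABS and 12.0 FPKM with HA/Mg (log2 change -0.26, limma adjusted p = 0.0143). Asah1, the acid ceramidase, averaged 34.0 and 40.0 FPKM (log2 change -0.23, limma adjusted p = 0.0137).

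Of 17 tested genes for the fusion of autophagosomes with lysosomes, 0 rose, 3 fell and 14 did not pass (median log2 change -0.003). Rab7, the GTPase of late endosomes that recruits the fusion machinery, was at 82.9, 87.4, 84.5 and 86.2 FPKM in the TABS replicates, and the HA/Mg replicates gave 101, 104, 102 and 98.6 FPKM. The groups were far apart for their spread (log2 change -0.25 ± 0.04 SE, limma adjusted p = 0.00859). Stx7, a fusion protein of late endosomes, averaged 32.1 ± 0.868 FPKM with TABS and 38.8 ± 0.769 FPKM with HA/Mg (SD, n = 4; log2 change -0.27, limma adjusted p = 0.00851). Vps41, a subunit of the tethering complex HOPS, fell by 0.23 on the log2 scale (limma adjusted p = 0.0321). The adjusted p-values of Rab7 and Stx7 were smaller than that of any autophagy gene tested.

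Of 18 tested genes for other selective receptors and mitophagy (the removal of mitochondria), 0 rose, 3 fell and 15 did not pass (median log2 change -0.11). Bnip3, a mitophagy receptor of the mitochondrial surface, was at 12.3, 12.0, 11.6 and 11.9 FPKM in the TABS replicates, and the HA/Mg replicates gave 20.9, 16.4, 13.8 and 16.3 FPKM. The TABS libraries were tight and low, the HA/Mg libraries spread and all higher (log2 change -0.45 ± 0.10 SE, limma adjusted p = 0.0207). Sec62, a receptor for the endoplasmic reticulum, and Cul3, a ubiquitin ligase scaffold, fell by 0.24 and 0.23 on the log2 scale (limma adjusted p = 0.0307 and 0.0347).

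Among 28 tested genes of the nutrient-sensing kinases upstream (mTORC1, AMPK and their regulators), 2 rose, 1 fell and 25 did not pass (median log2 change -0.02). Lamtor1, which anchors the Ragulator complex to the lysosome, rose by 0.22 (limma adjusted p = 0.0223) and Nprl3, a subunit of a complex that restrains mTORC1, by 0.23 (limma adjusted p = 0.0491) on the log2 scale. Rragc, a Rag GTPase, fell by 0.19 (limma adjusted p = 0.0228). Of 19 partners of the lipid kinase complex and early membrane factors, 0 rose, 2 fell and 17 did not pass (median log2 change -0.05). One of them, Nrbf2, a partner of the complex that holds Atg14, averaged 13.1 ± 0.364 FPKM with TABS and 15.8 ± 0.841 FPKM with HA/Mg (SD, n = 4; log2 change -0.25, limma adjusted p = 0.0143). The other was Trappc8 (log2 change -0.25, limma adjusted p = 0.0476).

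With each library left out in turn, Rab7 and Stx7 passed in 8 of 8 limma fits. Asah1 and Bnip3 passed in 7, with an adjusted p of 0.0508 for Asah1 without HA/Mg replicate 5 and of 0.0515 for Bnip3 without HA/Mg replicate 8. Gaa, Atp6v1h and Nrbf2 passed in 6, their adjusted p reaching 0.0559, 0.0531 and 0.0509 without HA/Mg replicate 5 or 7. Lamtor1 and Rragc passed in 4, Cul3 in 3, Vps41 and Sec62 in 2, and Hexa, Nprl3 and Trappc8 in 1. The genes called around the core machinery thus ranged from ones that no single library decided to ones that nearly every library did.

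The changes of the autophagy genes went with the base composition of their transcripts. Across the 35 genes the log2 change had a Spearman correlation of 0.61 with the GC content of the longest transcript, and across 10157 genes one of 0.54. With transcript length the values were -0.03 and -0.31. These are descriptions across genes, which share libraries and are not replicates. When each library's trends on length and GC content were removed, limma called 3 of the 35 genes, beside 6.37% of all genes. They were Gabarapl2 (log2 change 0.23 ± 0.04 SE, adjusted p = 0.0271), Atg4b (0.25 ± 0.06 SE, adjusted p = 0.0478) and Atg14 (-0.32 ± 0.08 SE, adjusted p = 0.0467). Gabarapl2 and Atg14 were thus called both ways. Gabarap at 0.22 (adjusted p = 0.0726) and Atg9a at 0.17 (adjusted p = 0.134) kept most of their difference without passing. For Atg4a, whose transcript has a GC content of 42.2%, the log2 change shrank from -0.23 to -0.08 (adjusted p = 0.362). The log2 change of Becn1 became 0.16 (adjusted p = 0.126). The genes called in addition without HA/Mg replicate 6 did not pass in this limma fit of all libraries. Map1lc3a was at 0.03 (adjusted p = 0.791), Atg4c at -0.10 (adjusted p = 0.296), Atg16l1 at 0.01 (adjusted p = 0.924) and Nbr1 at -0.17 (adjusted p = 0.319). Among the related genes called above, Rab7 (-0.21, adjusted p = 0.0271), Nrbf2 (-0.21, adjusted p = 0.0391) and Lamtor1 (0.25, adjusted p = 0.0345) also passed, while Stx7 (-0.10, adjusted p = 0.241), Bnip3 (-0.30, adjusted p = 0.103) and the others did not. Several of these came close to no difference: Cul3 was at -0.01, Atp6v1h at -0.03, Trappc8 at -0.05 and Sec62 at -0.06. Asah1 was at -0.08, Vps41 and Hexa at -0.09 and 0.09, Rragc at -0.10, Gaa at 0.18 and Nprl3 at 0.22. Whether base composition has a part in these differences was not tested beyond this removal.

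**Figure D4:**
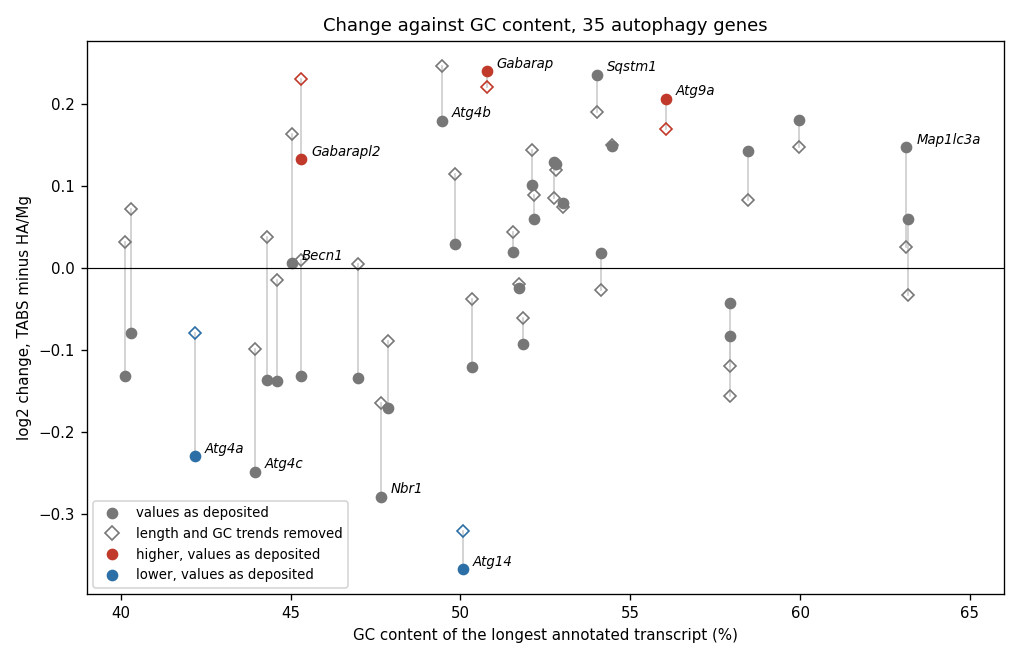
Log2 change, TABS minus HA/Mg, of the 35 tested genes against the GC content of the longest annotated transcript (percent), as deposited (filled points) and after removal of each library's length and GC trends (open diamonds, joined by lines). Genes of low GC content move up, Atg4a from -0.23 to -0.08, while Atg14 stays low at -0.32.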

How the data were processed

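RNA for 8 libraries of RAW264.7 cells (4 with TABS, 4 with HA/Mg) was extracted with TRIzol, had an RNA integrity number over 7 and was sequenced as paired reads on a NovaSeq after NEBNext Ultra preparation, per the labels' protocols. The authors deposited FPKM values per gene, made with fastp, STAR and DESeq2 on GRCm38, per the submitters' processing notes. Tool versions, the FPKM program, the annotation and strand handling were not stated. Because FPKM divides by a library total, a rise of abundant transcripts lowers the rest.

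Groups and replicate numbers came from the sample titles. Of 55335 identifiers 55154 matched GENCODE for GRCm38, which gave symbols, positions, lengths and GC content. The 10161 genes with 4 or more libraries at a minimum of 1 FPKM were fitted with limma 3.58.1 in R 4.3.3 on log2(FPKM + 1), with a mean-variance trend and two-sided tests, and p-values were adjusted by Benjamini-Hochberg over all of them. A call was an adjusted p under 0.05. Low values were mostly not whole fragments, so no count test was run and depths are estimates. Repeated 50-base stretches and exon overlaps were searched in the annotated transcripts. The steps were tested on simulated data.

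The members and lists were chosen with earlier results of these data known. From a related list 1 gene is not reported here. Any member could be named. Values in every library were given for called members and for 10 genes set by name (Sqstm1, the ATG8 genes, Becn1, Ulk1, Tfeb and Tfe3), and up to 4 called genes were named per related list. Nbr1, Rb1cc1 and, of the related genes, Gaa, Rab7 and Bnip3, outside the rule on values in every library, were given in full after their values were seen.

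Alternatives were pseudocounts of 0.1 and 0.5, no filter, a mean of at least 5 FPKM, 3 other scalings, removal of length and GC trends (natural splines with 4 degrees of freedom), a block for the replicate number, and leaving out each library in turn. Leaving out TABS replicate 7 and HA/Mg replicate 6 together was added after seeing the data.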

Additional observations from a re-analysis of the deposited data

Results flagged for a closer look

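In 70 groups of 4 libraries (35 genes, each scaffold), the highest or lowest library was set against the rest by Dixon's criterion, which chance passes in about 1 in 20 groups. It was passed in 5, close to that number. HA/Mg replicate 6 stood below its group for Nbr1, at 7.904 FPKM against 11.1 to 11.7, and for Atg13, at 22.14 FPKM against 24.9 to 25.3. TABS replicate 5 stood above its group for Map1lc3a, at 6.959 FPKM against 6.63 to 6.68, and below it for Map1lc3b, at 6.625 FPKM against 8.41 to 8.67. TABS replicate 7 stood below its group for Atg16l2, at 1.161 FPKM against 1.29 to 1.32.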

How the results depend on the processing

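Both other pseudocounts called the same 5 genes. The counts of autophagy genes called higher and lower with TABS, 3 and 2 as reported, became 1 and 0 without a filter on low values (all genes 220 and 588, against 515 and 1327), and lower calls became 1 with a mean of at least 5 FPKM, which leaves Atg14 out. Higher calls became 5 with median-of-ratios scaling (all genes 862), 1 with equal sums (all genes 251) and 8 with quantile normalization (all genes 806), where the median log2 change was 0.0923. With length and GC trends removed, 1 was lower, and all genes gave 263 and 384. Leaving out 1 library gave 0 to 4 higher and 0 to 5 lower (all genes 108 to 868 and 321 to 2452). Leaving out TABS replicate 7 and HA/Mg replicate 6 together gave 4 and 4 (all genes lower 2168). The replicate number as a block gave 0 and 0, and 0 of all genes, in limma, with and without length and GC trends removed (without, 7 members and 2987 genes had an unadjusted p under 0.05, and the smallest adjusted p was 0.0589). Deviations of same-numbered libraries correlated at 0.01, -0.27, -0.16 and 0.13, and those of libraries with different numbers at -0.251 to 0.382. Pairing by number was thus not seen, but 4 libraries per group cannot decide it and the labels name no block. The cause of the shifts in the counts of calls was not tested.

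Small differences that were not called changed sign: Becn1 was -0.041 and Map1lc3b -0.0256 with equal sums, Ulk1 was 0.0079 with quantile normalization, and Tfeb was -0.0335 with length and GC trends removed, with or without the block. With 1 library left out, Becn1 ran from -0.00998 to 0.0172 and Map1lc3b from -0.0637 to 0.0998. Of 19 alternatives, Atg4a passed in 10 and Gabarap, Gabarapl2 and Atg9a in 8 each, and Atg14 in 8 of 18. Genes near 1 FPKM rest on few fragments, and depth there limits what could be detected.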
